A study of Mus musculus with 4 samples.

Results

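Cst8, Cst9, Aard, Mro, Tesc, Kctd14, Vnn1, Gstm2, and Hsd17b3 are 9 genes that Sertoli cells of the mouse testis express early, and they were 9 of the 31053 features counted in each library. They were selected on their levels in the Sox9-positive cells of these libraries, so their excess in Sox9-positive cells over other cells is a description and carries no test. The same holds for their counts and medians beside those of all genes in any comparison of Sox9-positive cells between libraries. The data were 4 libraries of XY cells measured by droplet scRNA-seq, in which a unique molecular identifier (UMI) marks each transcript molecule, with 1 library per condition and no replicates. For 3 of them, ICR embryos gave in vivo gonads at E10.5, E11.5, and E12.5, with no transgene or agent labelled. The E10.5 dissection kept the surrounding dorsal mesenchyme, whereas the mesonephros was taken off at E11.5 and E12.5. The D6 library held cells of the single XY ESC line N271S9C. Its strain label is C57BL/6J, whereas the study's methods derive the line from embryos of a C57BL/6J father and a mother of another strain. The line carries an Nr5a1-hCD271 transgene, spelled Nr5a1-hCD27a in the labels, and Sox9-2A-CGFP. These ESCs passed through EpiLCs (FGF2 and Activin A) and were aggregated with CHIR99021, BMP4, and EGF, then given retinoic acid, Sonic hedgehog, PD0325901, EGF, and BMP4. From D4 they received BMP4, FGF9, and IWR1, a Wnt inhibitor, and at D6 the cells were enriched on hCD271 by MACS. The kit was version 2 in vivo and version 3 at D6, so the effects of kit, strain, culture, and sorting on any D6 value cannot be told apart. The labels title all 4 libraries XY, whereas their shared protocol text names the gonads female. The Y-linked genes Ddx3y, Eif2s3y, Kdm5d, and Uty summed to between 106 and 204.8 CPM (UMIs per 1000000 UMIs) in each library, and Xist, which is expressed from an inactive X, had between 2 and 29 UMIs.

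Sertoli cells are the supporting cells of the testis cords. In the XY gonad they arise from Nr5a1-expressing somatic cells once Sry has switched on Sox9, and they then secrete Amh, which removes the Müllerian ducts, and Dhh, which signals to the interstitium. Pdgfra is a receptor of interstitial cells, and Pou5f1 is a pluripotency factor that fetal germ cells retain.

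A cell was called Sox9-positive, Pdgfra-positive, or Pou5f1-positive if it held at least 1 UMI of that gene, and a cell could be in several classes. With the study's limits on detected genes and mitochondrial UMIs, 3837, 2101, 2764, and 2285 cells were retained at E10.5, E11.5, E12.5, and D6, with median depths of 8167, 11930, 10950, and 4607 UMIs. The Sox9-positive cells numbered 786, 768, 905, and 292 in that order, with medians of 9103, 12950, 10790, and 5344 UMIs. Of them, between 27.7% and 29.1% in each library also held a UMI of Pdgfra. Levels are given in CPM, the UMIs of a gene per 1000000 UMIs of the cells concerned, with exact 95% intervals that cover counting error only. The in vivo libraries shared between 10 and 19 cell barcodes in each pair, and none was shared with D6.

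The classes were checked against marker lists. Amh, Dhh, Sox8, Ptgds, and Inha, which mark Sertoli cells, summed to 4.21, 429.1, 1823, and 413.8 CPM in the Sox9-positive cells of the 4 libraries in time order with D6 last. At E10.5 there was no UMI of Dhh and only 2 of Amh, and the cartilage and sclerotome list (Col2a1, Pax1, Pax9, Acan, and Sox5) summed there to 195.7. The Sox9-positive cells of E10.5 therefore do not carry a Sertoli profile and serve as a reference of Sox9 cells without one. The germ list (Dazl, Ddx4, Dppa3, Dppa5a, and Dnd1) reached 3380 and 6237 CPM in Pou5f1-positive cells of E11.5 and E12.5. At D6 only 32 cells were Pou5f1-positive, in which the germ list summed to 281.1 CPM (58 UMIs), above the 10.94 of Pdgfra-positive cells of D6. Of these UMIs 52 were of Dppa5a and lay in 2 of the 32 cells, 3 were of Dazl, and 1 was of Ddx4, so this class is named here by Pou5f1 alone.

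The 9 genes lie on 8 chromosomes of GRCm38. Only the cystatin genes Cst8 (chr2:148798785-148805595) and Cst9 (chr2:148835147-148838738) share one, 29551 bases apart on the plus strand, and genes between them were not looked for. Tesc (chr5:118027743-118061878), Kctd14 (chr7:97451323-97459557), Vnn1 (chr10:23894688-23905343), Aard (chr15:52040107-52045722), and Mro are on the plus strand, and Gstm2 (chr3:107981702-107986453) and Hsd17b3 (chr13:64058266-64089230) on the minus strand. All are annotated as protein coding and none overlaps another gene. RefSeq promoters on GRCm38.p6, from 250 bases before to 50 after the start, were at hand for 5 of the 9 genes (Cst8, Cst9, Tesc, Gstm2, and Hsd17b3). Because the cystatin pair differs in timing below, the bases upstream of each annotated gene are shown with the letters searched for in capitals, 5′ to 3′ on the plus strand. The second, short stretch of Cst8 instead spans the start of its GENCODE gene model. The searches were for AAGGTCA, the NR5A1 motif, and for ACAAAG and AACAAT, 2 forms of the SOX motif, on both strands.
Cst8, chr2:148798589-148798784: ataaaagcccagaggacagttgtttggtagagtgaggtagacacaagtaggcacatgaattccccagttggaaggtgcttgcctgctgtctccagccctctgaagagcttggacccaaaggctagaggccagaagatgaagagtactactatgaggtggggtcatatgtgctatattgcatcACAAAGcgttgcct
Cst8, chr2:148798781-148798809: gcctgggcttcAAGGTCAggacttacata
Cst9, chr2:148834897-148835146: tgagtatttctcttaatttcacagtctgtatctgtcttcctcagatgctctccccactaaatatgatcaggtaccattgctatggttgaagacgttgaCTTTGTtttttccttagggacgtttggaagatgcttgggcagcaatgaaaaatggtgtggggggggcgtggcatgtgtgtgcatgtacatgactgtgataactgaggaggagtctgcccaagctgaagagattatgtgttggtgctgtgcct
In Cst8, AAGGTCA lay 47 bases and ACAAAG 68 bases before the RefSeq start. That start and AAGGTCA both lie inside the GENCODE gene model, and ACAAAG lies upstream of it. Cst9 held CTTTGT, the other strand of ACAAAG, 152 bases before its start. Cst9 held ACAAAG once more just past the start, outside the bases shown. None of the 3 letter strings was found in the promoters of Tesc, Gstm2, and Hsd17b3. Over all 32851 promoters of this length, 4.72% held AAGGTCA, 18.7% ACAAAG, and 10.7% AACAAT. Such matches are a description of these windows and not evidence of binding.

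The cystatin family takes its name from inhibitors of cysteine proteases. Cst8 and Cst9 belong to its reproductive subgroup, and whether they inhibit proteases was not examined here. Cst8 in Sox9-positive cells stood at 0.136 CPM at E10.5 (1 UMI), 307.3 (296.5 to 318.4) at E11.5, and 295.4 (285.2 to 305.9) at E12.5, while D6 had 34.7 (26.5 to 44.7). Cst9 stood at 7.73, 880.1 (861.7 to 898.7), 2300 (2271 to 2329), and 96.1 (82.0 to 111.9) in the same order. The cystatin pair therefore parted between E11.5 and E12.5, where Cst8 kept 0.961 times its level (0.914 to 1.01) and Cst9 reached 2.61 times (2.55 to 2.68). The share of Sox9-positive cells with a UMI was 56.9%, 58.7%, and 11.3% for Cst8 and 52.1%, 63.3%, and 13.0% for Cst9 at E11.5, E12.5, and D6.

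Of the enzymes, Hsd17b3 converts androstenedione to testosterone, a step that Sertoli cells carry out in the fetal mouse testis. It had no UMI in 786 Sox9-positive cells at E10.5, which by the floor of 3 counts allows a share of cells with a UMI of up to 0.382% (exact upper bound 0.468%), and E11.5 had 16.3 CPM (13.9 to 19.1), E12.5 had 73.6 (68.6 to 79.0), and D6 had 10.4 (6.17 to 16.5). Vnn1, a pantetheinase that releases pantothenate and cysteamine, stood at 3.26, 58.2, 229.5, and 4.63 CPM in the 4 libraries, the D6 value resting on 8 UMIs. Gstm2, a glutathione S-transferase of the mu class, stood at 13.8, 1046, 1552, and 567.8 CPM. Gstm2 was detected in 84.9%, 83.0%, and 46.2% of Sox9-positive cells at E11.5, E12.5, and D6, whereas Hsd17b3 was found in 13.3%, 35.7%, and 3.77%, and Vnn1 in 35.4%, 64.4%, and 2.74%.

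Tesc, a calcium-binding protein related to calcineurin B, stood at 0.136 (1 UMI), 197.6, 429.7, and 31.3 CPM in the 4 libraries. Kctd14, a protein with a BTB domain of the potassium channel tetramerization family, ran the other way in vivo, with 1744 (1718 to 1770) at E11.5 and 1079 (1059 to 1098) at E12.5. It stood at 1.09 CPM at E10.5 and 461.3 (429.8 to 494.4) at D6. Aard, named for an alanine- and arginine-rich domain, stood at 15.3, 789.2, 1577, and 108.2 CPM, and Mro, or maestro, a protein with HEAT-like repeats, at 0.679, 98.7, 118, and 15.6. From E11.5 on, a UMI was found in 64.7%, 66.6%, and 15.1% of the Sox9-positive cells for Aard, in 43.8%, 51.3%, and 7.53% for Mro, in 47.4%, 59.7%, and 8.90% for Tesc, and in 76.7%, 67.6%, and 28.4% for Kctd14. The E10.5 cells lay below the other in vivo libraries for each gene, and the D6 cells lay between E10.5 and E11.5 for all 9, although the intervals of D6 and E10.5 overlapped for Vnn1 (2.00 to 9.12 against 2.09 to 4.85), and those of D6 and E11.5 for Hsd17b3.

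**Figure D1:**
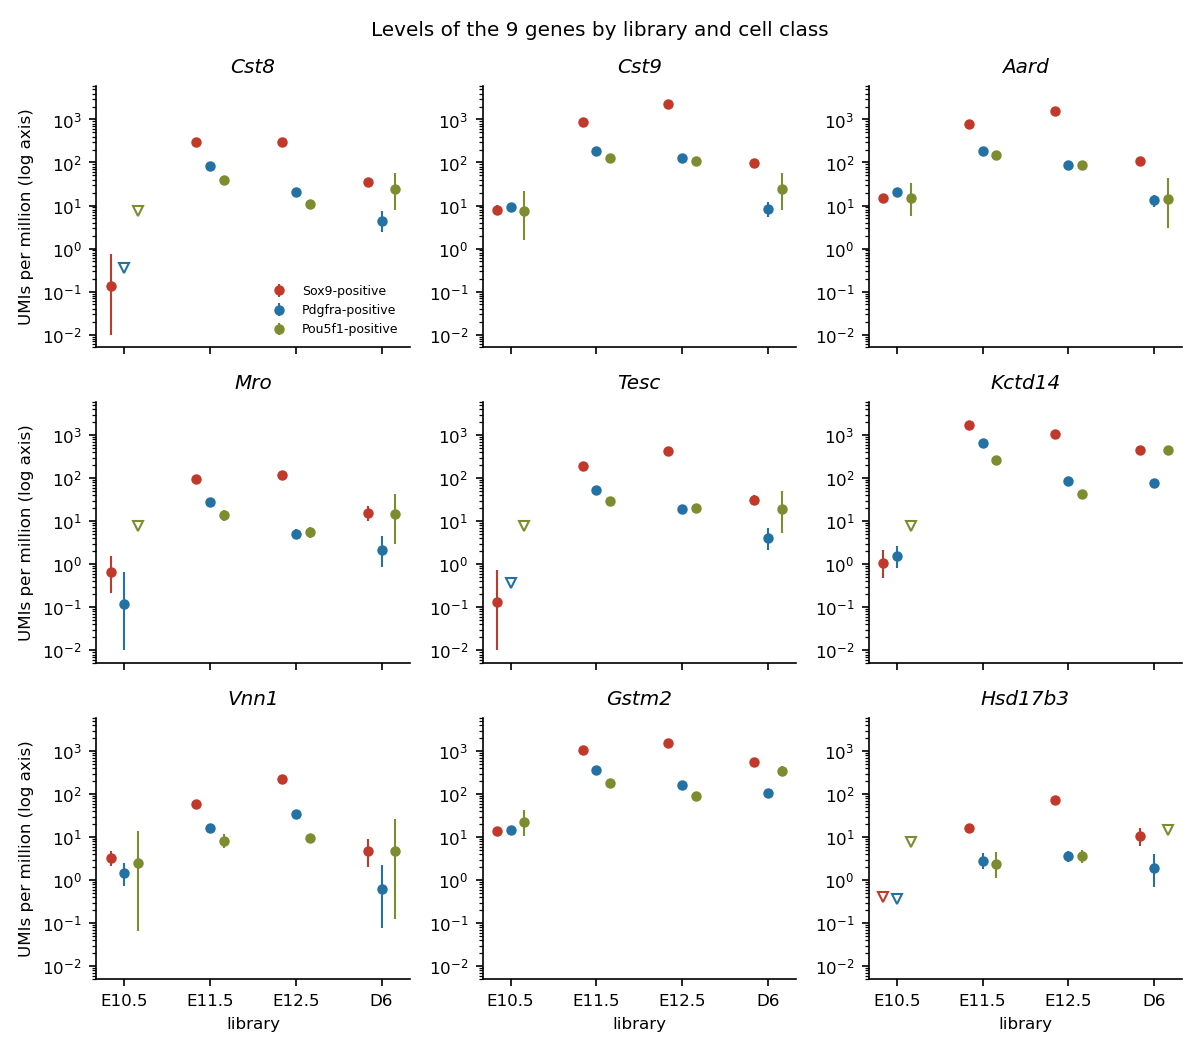
CPM (log axis) of each of the 9 genes in Sox9-positive, Pdgfra-positive, and Pou5f1-positive cells of the 4 libraries; bars are exact 95% counting intervals and open triangles stand at the level of 3 UMIs where none was counted. In vivo the Sox9-positive point is the highest of the classes from E11.5 on for every gene, whereas at D6 Kctd14 in Pou5f1-positive cells (445.9) lies beside that in Sox9-positive cells (461.3).

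The share of cells with a UMI depends on depth, so each cell was also reduced at random to 2000 UMIs, which kept 733 of the 768 Sox9-positive cells of E11.5, all 905 of E12.5, and 291 of the 292 of D6. The thinned shares at E11.5, E12.5, and D6 were 34.8%, 33.3%, and 4.81% for Cst8, 38.9%, 56.4%, and 8.59% for Cst9, and 62.8%, 56.8%, and 21.3% for Kctd14. They were 62.2%, 67.2%, and 34.0% for Gstm2, 10.1%, 33.2%, and 0.687% for Vnn1, and 2.32%, 10.8%, and 1.03% for Hsd17b3. For Aard they were 49.0%, 58.6%, and 8.94%, for Tesc 24.1%, 41.6%, and 3.44%, and for Mro 16.4%, 20.7%, and 2.06%. The low shares of Hsd17b3 and Vnn1 at D6 are near the level of single UMIs and no order was read from them. At least 1 of the 9 genes was detected in 93.0%, 89.3%, and 49.7% of Sox9-positive cells in the same order, and after thinning in 75.8%, 73.6%, and 38.8%.

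To order the genes by onset, the level of each in Sox9-positive cells at E11.5 was taken as a percentage of its level at E12.5. Kctd14 came first, with 161.7% (157.9 to 165.6), followed by Cst8 with 104% (98.9 to 109.4), Mro with 83.7% (76.9 to 91.0), and Gstm2 with 67.4% (65.8 to 69.1). Aard had reached 50.0% (48.7 to 51.4), Tesc 46.0% (43.6 to 48.5), and Cst9 38.3% (37.3 to 39.2). Vnn1 with 25.4% (23.1 to 27.8) and Hsd17b3 with 22.2% (18.6 to 26.3) came last, and theirs were the only neighboring intervals to overlap. Of the 36 pairs of genes, 36 kept this order in Sox9-positive cells with a UMI of Nr5a1 and in those with at least 2 UMIs of Sox9. When the genes were ordered by their thinned share at E11.5, 28 pairs kept it. These comparisons reuse cells that set the order, so they lend it no separate support. The order rests on Sox9-positive cells at 2 stages alone. At E10.5, 59 cells with Nr5a1 and without Sox9 already held Cst9 at 53.8 and Vnn1 at 29.5 CPM, both late in this order, and Kctd14, the first, at 1.74 (1 UMI).

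With 2-fold as the rule of size, 4 of the 9 genes were higher at E12.5 than at E11.5: Hsd17b3 (4.51 times, 3.80 to 5.37), Vnn1 (3.94 times, with an interval up to 4.33), Cst9, and Tesc (2.18 times, 2.06 to 2.30). Aard, at 1.999 times (1.95 to 2.05), missed the limit, and Gstm2 and Mro stood at 1.48 and 1.20 times. Kctd14 alone was lower with an interval clear of 1, at 0.618 times (0.604 to 0.633). Over all 12652 genes with at least 20 UMIs in both groups together, 3.79% were 2-fold higher at E12.5, and the median log2 ratio was 0.06 against 1.00 for the 9 genes. The share of Sox9-positive cells with a UMI of Amh moved with this comparison, 201 of 768 cells at E11.5 and 552 of 905 at E12.5.

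The part of this shift in the ratios was not tested. A gate on Amh, chosen after the data were seen, was applied to the Sox9-positive cells. At E12.5 the sum of the 9 genes was 12080 CPM in cells with Amh and 743.4 in those without, and single genes differed by 7.72 times (Vnn1) to 30.7 times (Hsd17b3). At E11.5 the sums were 8914 and 3680, and the genes differed by only 1.41 times (Kctd14, 2210 against 1565 CPM) to 4.11 times (Vnn1). In the cells without an Amh UMI, Vnn1 went against this sum, with 31.2 CPM at E11.5 and 45.0 at E12.5. Among the cells with Amh, 2 genes were 2-fold higher at E12.5 than at E11.5, Hsd17b3 (3.37 times) and Vnn1 (2.71 times), against 4.96% of the 11044 genes tested there. Cst9 stood at 1.98 times and Kctd14 at 0.753 times. In Sox9-positive cells Amh itself was 11.1 times higher at E12.5 than at E11.5, and 3.12-fold lower at D6 than at E12.5. The gate may therefore take unlike cells in each library.

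**Figure D2:**
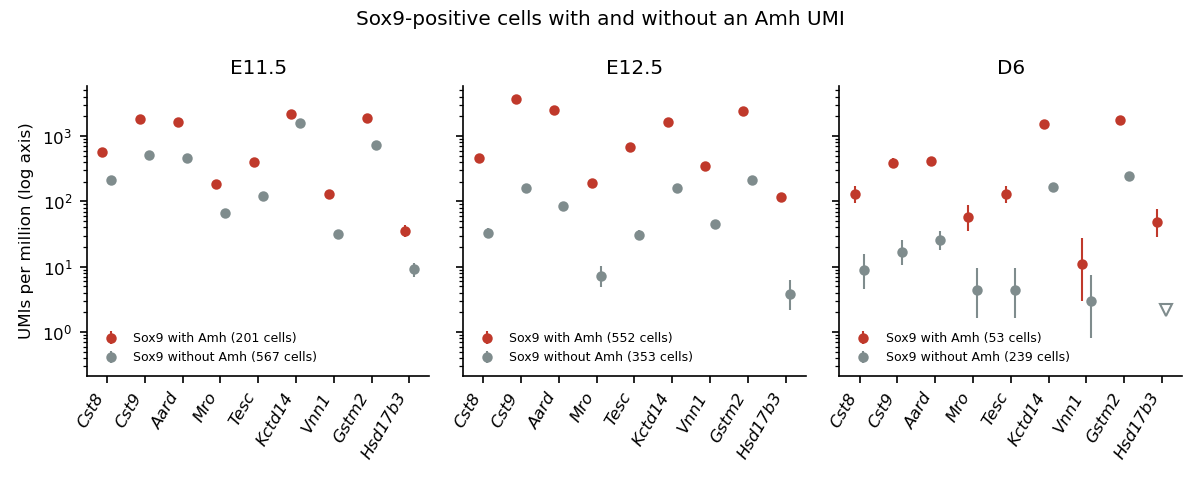
CPM (log axis) of the 9 genes in Sox9-positive cells with and without a UMI of Amh at E11.5, E12.5, and D6; bars are exact 95% counting intervals and the open triangle marks 3 UMIs where none was counted. Cells with Amh lie above those without by 1.41 (Kctd14) to 4.11 times (Vnn1) at E11.5 and by 7.72 to 30.7 times at E12.5. At D6 they lie above by 7.15 (Gstm2) to 29.4 times (Tesc) except for Vnn1, at 3.68 times with a wide interval (0.685 to 19.7), and Hsd17b3, which had no UMI without Amh.

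At D6, all 9 genes were at least 2-fold lower in Sox9-positive cells than at E12.5. Vnn1 was 49.6-fold lower (25.1 to 114.9), Cst9 23.9-fold (20.5 to 28.1), Aard 14.6-fold (12.6 to 16.9), and Tesc 13.8-fold (10.52 to 18.3). Cst8, Mro, and Hsd17b3 were 8.51-fold, 7.55-fold, and 7.07-fold lower. Gstm2 and Kctd14 were the closest to E12.5, 2.73-fold (2.56 to 2.92) and 2.34-fold (2.18 to 2.52) lower. Over all 12096 genes tested, 9.66% were 2-fold lower at D6, and the median log2 ratio was 0.32 against -3.09 for the 9 genes. Because the 9 genes were selected on their levels in Sox9-positive cells of these libraries, this difference from all genes is a description only. Of all genes past 2-fold in either direction, 25.6% were lower with total UMIs as the scale and 57.8% with TMM factors, which move the median of all genes by -0.52 on the log2 scale and leave all 9 genes lower. Compared with E11.5, 7 of the 9 genes were 2-fold lower, against 8.53% of 12087 genes tested, and Gstm2 stood at 0.543 times (0.508 to 0.580) and Hsd17b3 at 0.638 times (0.369 to 1.04).

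Markers of other gonadal cells moved with the D6 comparison. The Sertoli list above was lower at D6 (413.8 against 1823 CPM), while Nr2f2, a regulator expressed in interstitial cells, stood at 951.5 CPM and was found in 83.6% of Sox9-positive cells at D6, against 122.7 CPM and 39.8% at E12.5. Tcf21 and Snai2, also expressed in interstitial cells, stood at 182.3 and 71.2 CPM at D6 and at 77.7 and 49.0 at E12.5. The steroidogenic list (Star, Cyp11a1, Cyp17a1, Hsd3b1, and Insl3) summed to 147 CPM at D6 and 27.4 at E12.5, and 22.6% and 14.7% of the Sox9-positive cells held a UMI of it. The part of these cells in the lower D6 levels was not tested.

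Only 53 of the 292 Sox9-positive cells at D6 held a UMI of Amh, and they carried 1651 of the 2298 UMIs of the 9 genes. In these 53 cells Kctd14 stood at 1540 CPM, 0.925 times (0.849 to 1.01) its level in the cells with Amh of E12.5, and Gstm2 at 1753, or 0.728 times (0.672 to 0.787). Hsd17b3 reached 0.412 times (0.243 to 0.655), Mro 0.301 times, Cst8 0.280 times, Tesc 0.190 times, Aard 0.162 times, and Cst9 0.106 times (0.0889 to 0.124). Vnn1, with 4 UMIs, stood at 0.0311 times (0.00848 to 0.0798). In these cells 7 of the 9 genes were 2-fold lower than at E12.5, against 9.05% of the 10649 genes tested there, and the pair nearest to it in all Sox9-positive cells was again the nearest. These ratios use total UMIs as the scale. TMM factors, which shift D6 ratios of all Sox9-positive cells by -0.52 on the log2 scale, were not applied to gated cells. How near Kctd14 and Gstm2 lie to E12.5 thus depends on the scale. A second gate, also chosen after the data were seen, took for each gene the cells in which at least 3 of the others were detected after thinning. Under it Kctd14 stood at 1.06 times (0.937 to 1.20) and Gstm2 at 0.809 times (0.709 to 0.919) their E12.5 levels, and Cst9 and Vnn1 at 0.166 and 0.0566 times. This gate selects on the 9 genes themselves and takes other cells for each gene. At D6 it left 21 cells for Kctd14 and 18 for Gstm2, against 31 for Cst9 and 37 for Vnn1. These ratios are therefore a description and lend the ranking of the genes no separate support.

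**Figure D3:**
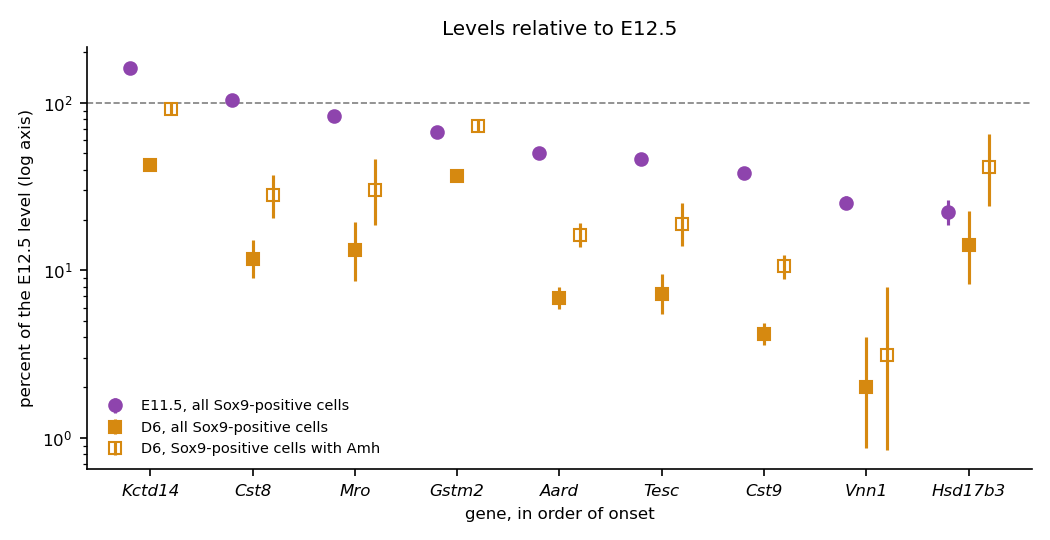
Level of each gene in Sox9-positive cells as a percentage of that at E12.5 (log axis), for all Sox9-positive cells of E11.5 and D6 and for those of D6 with a UMI of Amh set against those of E12.5 with one; genes are in order of onset and bars are exact 95% counting intervals. Kctd14 and Gstm2 with Amh lie at 92.5% and 72.8%, and Vnn1 is the lowest of the D6 points, at 2.02% and 3.11%. All points use total UMIs as the scale, without TMM factors.

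The makeup of the sum differed between the libraries. In Sox9-positive cells the 9 genes summed to 5138, 7654, and 1330 CPM in the E11.5, E12.5, and D6 libraries. Kctd14 and Gstm2 together gave 54.3%, 34.4%, and 77.4% of these UMIs, and Cst9 and Aard 32.5%, 50.7%, and 15.4%.

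Detection of the 9 genes was also counted per cell, and no count expected from independent detection was computed. After thinning, the median Sox9-positive cell of E11.5, E12.5, and D6 held 3, 5, and 0 of the 9 genes, and the fullest cells held 8, 9, and 6. At least 3 genes were found in 57.0%, 61.1%, and 12.7% of Sox9-positive cells, against 1.26%, 0.356%, and 0.194% of Pdgfra-positive cells without Sox9. None of the 9 was found in 24.1%, 26.4%, and 61.2% of Sox9-positive cells. Among cells with a single gene of the 9, that gene was Gstm2 in 46.8%, 58.5%, and 82.2% (37 of 45 cells at D6), with Kctd14 next at E11.5 (35.4%).

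**Figure D4:**
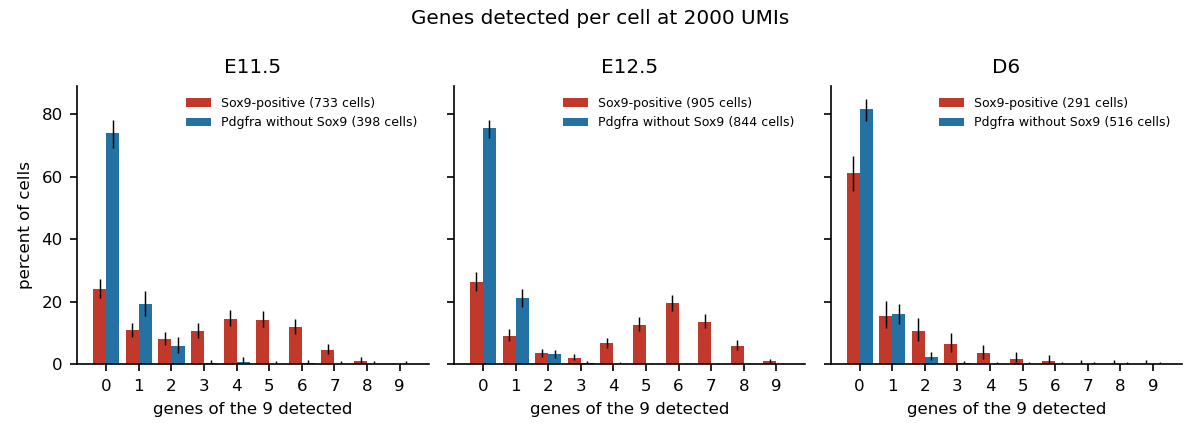
Percent of cells by the number of the 9 genes detected after thinning to 2000 UMIs, in Sox9-positive cells and in Pdgfra-positive cells without Sox9, with exact 95% binomial intervals. Sox9-positive cells have a peak at 0 and in vivo a second one, at 4 genes at E11.5 and at 6 at E12.5, whereas 61.2% of those of D6 stand at 0.

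The background was read in Pdgfra-positive and Pou5f1-positive cells. Over Pdgfra-positive cells, Sox9-positive cells were 2.61 to 5.73 times higher at E11.5 (9 of 9 genes past 2-fold, against 6.65% of 12484 genes tested) and 6.59 to 23.0 times at E12.5 (9 of 9, against 9.63% of 12740). At D6 they were 5.23 to 11.8 times higher (8 of 8 genes with at least 20 UMIs, against 4.39% of 11087), Vnn1 having only 10 UMIs in both classes. Nothing is read from these counts, since the genes were chosen for such a difference. In Pou5f1-positive cells, whose median depths were 16430 UMIs at E11.5 and 18150 at E12.5, the genes held 12.8% to 19.3% of their Sox9-positive levels in the E11.5 library and 3.62% to 5.72% in that of E12.5. At least 1 UMI was found in 2.04% (Hsd17b3) to 41.6% (Aard) of Pou5f1-positive cells at E11.5 and 3.12% (Hsd17b3) to 34.4% (Gstm2) at E12.5.

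In vivo, most UMIs of this background sat in cells that also held Sox9. At E11.5, 34.6% of Pdgfra-positive cells had a UMI of Sox9 and carried 87.8% of the UMIs of the 9 genes in that class, and 17.1% of Pou5f1-positive cells carried 84.4%. At E12.5, 23.5% and 6.25% of these classes carried 79.2% and 81.3%. The shares at D6 were lower, since 14.1% of Pdgfra-positive cells carried 45.5% of the UMIs and 6.25% of Pou5f1-positive cells (2 of 32) carried 37.8%. In the D6 library the Pou5f1-positive cells (median 5849 UMIs) had shares near or above those of Sox9-positive cells for Gstm2, Kctd14, Cst8, and Cst9, which were found in 15, 9, 4, and 4 of the 32 cells. A UMI of any germ marker was present in 4 of these cells. Pdgfra-positive cells of D6 (604 cells, median 4664 UMIs) had lower shares of the same genes, with 25.3%, 11.1%, 1.66%, and 1.49%. Apart from the study's upper limits on detected genes, no step removed doublets, and the part of doublets in these cells was not tested. RNA released by other cells was not corrected for either. Hbb-y, a globin gene of erythroid cells, had a UMI in 62.0% of Pou5f1-positive and 53.1% of Sox9-positive cells at E11.5. The shares at E12.5 were 49.8% and 38.9%, and D6 had no UMI of it in either class. The part of such RNA in the background was not tested.

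With the Sox9 cells left out, Pou5f1-positive cells held between 0.862% and 4.57% of the Sox9-positive levels at E11.5 and between 0.266% and 1.66% at E12.5. In Pdgfra-positive cells without Sox9 the genes divided. At E12.5, Vnn1 stood at 24.2 CPM, 10.53% (9.15 to 12.1) of its Sox9-positive level, Gstm2 at 71.1, or 4.58% (4.24 to 4.95), and Kctd14 at 30.8, or 2.86% (2.53 to 3.21). The same genes stood at 0.929% (0.558 to 1.45), 1.66% (1.45 to 1.89), and 0.832% (0.659 to 1.04) in Pou5f1-positive cells without Sox9. Cst9, Mro, and Hsd17b3 in Pdgfra-positive cells stood at 0.237%, 0.272%, and 0.581%, each below its value in the Pou5f1-positive cells (0.551%, 0.380%, and 1.22%), with intervals that overlapped for Mro and Hsd17b3. At E11.5, Gstm2 (10.0%), Kctd14 (9.59%), and Vnn1 (8.41%) were again the highest in Pdgfra-positive cells without Sox9, and the others stood at 1.47% to 2.97%, with no UMI of Hsd17b3. Gstm2 and Kctd14 again lay above the Pou5f1-positive cells (4.02% and 3.17%). Cst8 also lay above them, with 2.87% (2.09 to 3.85) against 1.13% (0.565 to 2.03). The intervals of Vnn1 overlapped, and Aard went the other way, with 4.57% in Pou5f1-positive cells and 1.79% in Pdgfra-positive cells.

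Cells with Nr5a1 but neither Sox9 nor Pdgfra, a class chosen after the data were seen, were compared with the Sox9-positive cells of their library. In vivo, 157 such cells at E11.5 held 5.35% (Tesc) to 37.6% (Kctd14) of the Sox9-positive levels, and 137 at E12.5 held 9.54% (Mro) to 34.8% (Hsd17b3). At D6 there were 493, with a median of 5559 UMIs, against 12090 at E11.5 and 9657 at E12.5. Absence of a Sox9 UMI was thus read at a lower depth at D6, and the part of depth was not tested. In them Kctd14 stood at 504.7 CPM, 109.4% (100.4 to 119.4) of its Sox9-positive level, and Cst8 at 52.6, or 151.4% (111.8 to 207.3). Gstm2 stood at 55.9% (51.1 to 61.2), Mro at 63.9% (36.7 to 111.7), and Vnn1 at 151% with a wide interval (64.2 to 393.9). Cst9 (24.2%), Aard (23.4%), Tesc (16.0%), and Hsd17b3 (9.58%) were lower. The 9 genes summed to 946.1 CPM in these cells at D6, against 1330 in Sox9-positive cells, and at E12.5 the sums were 1675 and 7654. The Sox9-positive cells of this comparison were not gated on Nr5a1. At D6, 188 of them had no UMI of Nr5a1, and their sum was 246.6 CPM. In the 104 with one the sum was 2868 CPM. Kctd14 stood there at 1039, Cst8 at 79.8, and Vnn1 at 11.2 (8 UMIs), each above its level in the Nr5a1-positive cells without Sox9 or Pdgfra. In the 32 Pou5f1-positive cells of D6, Kctd14 stood at 445.9 and Gstm2 at 349 CPM, with intervals of 359.5 to 546.9 and 273.1 to 439.5, and these cells also held 52 UMIs of Star, a cholesterol transporter of steroidogenic cells.

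**Figure D5:**
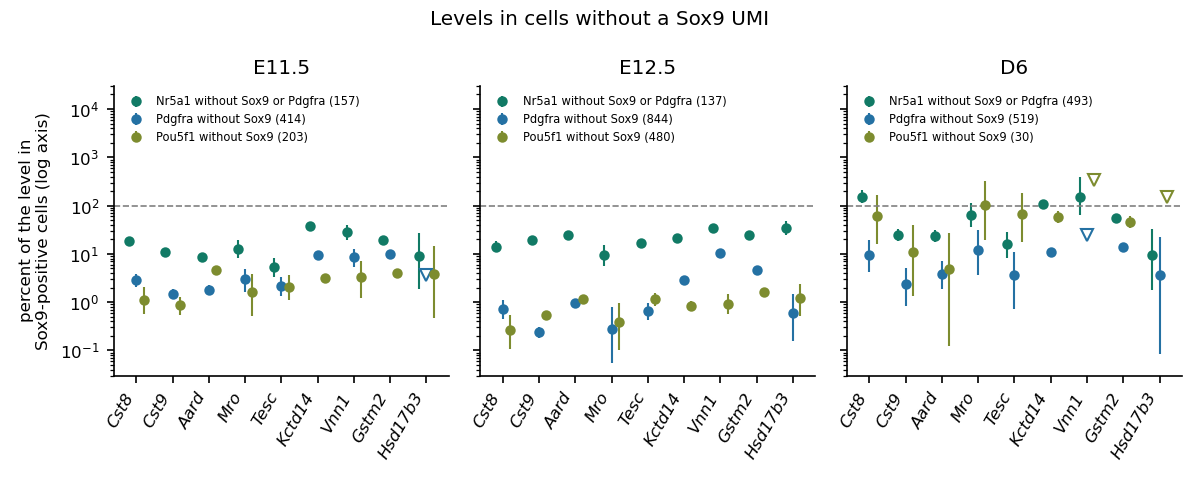
Level of each gene in cells without a Sox9 UMI, as a percentage (log axis) of its level in Sox9-positive cells of the same library, for Nr5a1-positive cells without Pdgfra, Pdgfra-positive cells, and Pou5f1-positive cells, with numbers of cells in the key; bars are exact 95% counting intervals and open triangles stand at 3 UMIs where none was counted. The dashed line is at 100%, which no gene reaches at E11.5 or E12.5. At D6, Kctd14, Cst8, and, with a wide interval, Vnn1 of Nr5a1-positive cells pass it, as does Mro of Pou5f1-positive cells on 3 UMIs (101.6%), while the triangles of Vnn1 and Hsd17b3 there mark no UMI. The Sox9-positive cells that set 100% were not gated on Nr5a1, and those of D6 with Nr5a1 held higher levels of Kctd14, Cst8, and Vnn1.

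Beside the 9 genes, 25 genes of the Sertoli pathway were followed in the same contrasts, and 23 had enough UMIs. At E12.5, 7 were 2-fold higher than at E11.5 and none was 2-fold lower, with a median log2 ratio of 0.15. These were Amh (11.1 times), the prostaglandin D synthase Ptgds (4.21 times), the tight junction protein Cldn11 (4.07 times), the transcriptional coregulator Cited1 (3.85 times), the collagen Col9a3 (3.38 times), the inhibin subunit Inha (2.67 times), and the hedgehog ligand Dhh (2.21 times). At D6, 13 were 2-fold lower than at E12.5 and 1, the FGF receptor Fgfr2 (2.81 times), was 2-fold higher, with a median of -1.23. Sox8, a relative of Sox9, was 23.3-fold lower with 2 UMIs at D6, Dhh 8.29-fold, Col9a3 8.14-fold, Cldn11 7.36-fold, Dmrt1, a DM-domain regulator, 5.47-fold, and Amh 3.12-fold. The regulators Wt1, Gata4, and Nr0b1 stood at 0.981, 1.21, and 0.999 times their E12.5 levels, the ligand gene Kitl at 0.989 times, Nr5a1 at 1.77 times, and Sox9 itself at 0.793 times (0.718 to 0.876). Nothing is read from the Sox9 ratio, because every cell compared holds at least 1 UMI of Sox9 by the gate, at unlike depths. Sox9-positive cells made up 12.8% of retained cells at D6 and 32.7% at E12.5. With TMM factors each D6 ratio of this list shifts by the same -0.52 on the log2 scale. The shift takes Fgfr2 below the 2-fold limit, Gata4 below its E12.5 level, and Wt1, Nr0b1, Kitl, and Sox9 further below theirs. The counts of 13 and 1 use total UMIs as the scale.

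Paralogs of the 9 genes did not move as one. Of the other cystatins, 4 of 11 had enough UMIs, and Cst12 was 6.91 times higher at E12.5 than at E11.5 while Cst13 was 2-fold lower (0.425 times). All 4 were 2-fold lower at D6 than at E12.5, among them Cst3 (0.264 times), the widespread cystatin C, and Cst13 on 1 UMI. Of 6 other Gstm genes, Gstm6 was 3.99 times higher at E12.5 than at E11.5, and 4 were 2-fold lower at D6, namely Gstm1 (0.207 times), Gstm5 (0.373), Gstm6 (0.113), and Gstm7 (0.154). Gstm genes resemble each other closely, so the split of reads among them, Gstm2 included, is uncertain. Of 17 Kctd genes tested, none was 2-fold higher and 1 lower at E12.5. At D6, 5 were higher and none lower (2.25 to 2.99 times, before the shift of -0.52 that TMM factors give). Over all 12096 genes tested, 3390 were 2-fold higher at D6 than at E12.5, so the Kctd count is near the share of all genes. Among 6 Hsd17b genes, Hsd17b1 was 4.66 times higher at E12.5 than at E11.5, with 30 against 6 UMIs.

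The genes with the most similar pattern were sought over 14 groups of cells, exclusive classes of the libraries, among 5251 genes, by Pearson's r of log2(CPM + 10) as a description. Closest to the sum of the 9 genes were Aldh1a1, an enzyme of retinoic acid synthesis (r = 0.973), Etnk2, an ethanolamine kinase (0.972), Aldh3b1 (0.972), the receptor Gpr37 (0.971), and Gstm1 (0.968). Aldh1a1 stood at 2.31, 257.8, 547.3, and 49.2 CPM in Sox9-positive cells of E10.5, E11.5, E12.5, and D6, and Etnk2 at 2.04, 297.7, 273.5, and 93.2. Singly, the nearest gene was Dhh for Tesc (0.994) and Aard (0.975), Col9a3 for Cst9 (0.977), Aldh3b1 for Cst8 (0.986), Adhfe1 for Mro (0.995), and Etnk2 for Kctd14 (0.9695). For Gstm2 it was Cyp26b1 (0.977), which degrades retinoic acid, for Hsd17b3 Ccl17 (0.983), and for Vnn1 Uxs1 (0.956). The groups share libraries and depths, so these values rank genes only within these data.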

How the data were processed

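The authors deposited gene-by-barcode UMI counts of 4 XY libraries, made with Cell Ranger on mm10 without normalization. The labels name version 3.0.2, whereas the deposited headers name 6.0.0. Retained cells had over 1000, 500, 2000, and 1000 and under 4000, 5000, 5000, and 4000 genes, and under 10%, 20%, 8%, and 12% mitochondrial UMIs, at E10.5, E11.5, E12.5, and D6, as the study's methods give them. This left 32508523, 24625441, 34173977, and 11906360 UMIs.

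Counts were summed over each cell class and scaled to 1000000 UMIs (CPM). Sums carry exact Poisson, ratios exact conditional binomial, and shares exact Clopper-Pearson intervals at 95%, which cover counting error only. Genes with at least 20 UMIs in both groups together were compared with a limit of 2-fold, and a group at 0 was set to 3 UMIs. With 1 library per condition there is no test. No doublet caller was run, and RNA released by other cells was not corrected for. The summed interstitial list is not reported here. The 9 genes and all lists were chosen with earlier results of these data known. Genes are named if they are among the 9, on the Sertoli list, paralogs, or nearest in pattern. The ratio step was tested on simulated data. Python 3.11.15, numpy 2.4.6, scipy 1.17.1, pandas 2.3.3, matplotlib 3.10.9, and edgeR 4.0.16 in R 4.3.3 (TMM) were used.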

Additional observations from a re-analysis of the deposited data

How the results depend on the processing

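Each count of genes past 2-fold was recomputed under 13 alternatives with stricter, exclusive, or Nr5a1-gated classes, other cell filters, thinning, other scales, and limits of 5 or 50 UMIs. No paired analysis was possible because each condition has 1 library. The count for E12.5 over E11.5 (4) ranged from 3 to 5, and was 2 in the cells with Amh, an alternative chosen after seeing the data. That for D6 below E12.5 (9) ranged from 7 to 9, and in cells with Nr5a1 or in the 2 gates chosen after seeing the data Kctd14 and Gstm2 missed 2-fold (-0.37 and -0.74 on the log2 scale with Nr5a1). For Sox9-positive over Pdgfra-positive, the E11.5 count was 8 or 9, that of E12.5 was 9, and that of D6 (8) ranged from 5 to 9, the 5 coming from thinning, which left 5 genes with enough UMIs. Thinned shares with any of the 9 genes were 75.85%, 73.59%, and 38.83% for the E11.5, E12.5, and D6 libraries, since fewer UMIs per cell are counted. No called ratio changed sign, but the ratio of Cst8 between E11.5 and E12.5 ran from -0.17 to 0.17 on the log2 scale. The number of all genes 2-fold higher at E12.5 than at E11.5 (480) was 870 with 5 UMIs and 311 with 50. That of genes lower at D6 (1168) was 2556 with TMM. Over Pdgfra-positive cells, 830 genes at E11.5 became 1293, 1325, and 1306 with 2 UMIs, exclusive classes, and no other markers, 513 when thinned, and 1365 and 541 with 5 and 50 UMIs. The 1227 at E12.5 became 769 when thinned, and the 487 at D6 became 931 with Nr5a1, 318 when thinned, and 1103 and 231 with 5 and 50 UMIs. Depth limits Vnn1 and Hsd17b3 at D6, with 8 and 18 UMIs.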

Other observations

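At E10.5, before the Sertoli markers appear, 4 of the 9 genes had UMIs enough (20 in both groups together) to compare cells with Nr5a1 and without Sox9 (59 cells) with cells with Sox9 and without Nr5a1 (773), classes chosen after the data were seen. Cst9 stood at 53.8 CPM (31 UMIs) in the former and 7.32 in the latter, or 7.35 times higher (4.56 to 11.7). Vnn1 stood at 29.5 (17 UMIs) and 2.35, or 12.6 times higher (6.03 to 26.2). Gstm2 stood at 24.3 and 13.8, or 1.76 times, with an interval of the ratio that holds 1 (0.929 to 3.09). Aard went the other way, with 3 UMIs in the 59 cells, at 0.334 times (0.0678 to 1.00). These values come from a single library and cover counting error only.

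The sum of the 9 genes was also taken by the number of Sox9 UMIs in a cell, in bins chosen after the data were seen. In cells with 1, 2, 3 or 4, and 5 or more UMIs of Sox9 it stood at 886.3, 2159, 4709, and 8238 CPM at E11.5 and at 2161, 6310, 10020, and 12010 at E12.5. At D6 it stood at 863, 1997, 2153, and 4741, the last from only 3 cells. At E10.5 it stood at 44.9, 47.1, 29.9, and 23.3. Median depths of the bins rose from 11760 to 13580 UMIs at E11.5, from 4919 to 8537 at D6, and from 8924 to 11480 at E10.5. At E12.5 they were 10730, 10320, 10460, and 11170. Depth thus rose with the bins except at E12.5, and its part was not tested.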
